A study of Mus musculus with 15 samples.

Results

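Mitochondrial ribosomal proteins were examined as a family of 72 genes, taken as every line of the expression table whose symbol begins with Mrpl or Mrps and a digit, out of 13834 lines in all. By symbol, 43 belonged to the large subunit and 29 to the small subunit. RNA had been sequenced from microglia, the resident macrophages of the brain, sorted by flow cytometry from mouse brain. The PLX5622 group (n = 4) came from 18-month-old mice that had received PLX5622, a CSF1 receptor inhibitor used to deplete microglia. The AF-high (n = 5) and AF-low (n = 3) groups came from untreated mice of the same age and held cells of high or low autofluorescence, and the young group (n = 3) came from untreated 3-month-old mice. By their titles, libraries of the same group are biological replicates. The labels do not say whether a library held 1 animal or a pool, so each p-value measures library-to-library spread, whatever its source. The autofluorescence of the PLX5622 and young cells, the dose and schedule of the compound, and the strain and sex of the mice are also not given. The comparisons asked how the transcripts of this family differ with autofluorescence, with age and with the compound.

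Mitochondria carry a small genome that encodes core subunits of the respiratory chain, and these proteins are made on a separate ribosome inside the organelle. Its ribosomal RNAs are mitochondrially encoded, while all of its proteins are encoded in the nucleus, translated in the cytosol and imported. Part of the family descends from bacterial ribosomal proteins and the rest was gained in the mitochondrial lineage. ETS-family factors, among them GABP, together with NRF1, are textbook regulators of nuclear genes for mitochondrial proteins, and microglia use mitochondrial respiration beside glycolysis.

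The symbols follow an older naming that does not always match the structure. Mrps30 and Mrps18a have small-subunit symbols, but their proteins sit in the large subunit. Mrps18a, Mrps18b and Mrps18c encode paralogs of the same bacterial protein. Mrps36 is a subunit of the 2-oxoglutarate dehydrogenase complex rather than of the ribosome, and Mrpl58, also known as ICT1, is a peptidyl-tRNA hydrolase that became a structural part of the large subunit. Mrpl23-ps1 is a processed pseudogene, counted here with the large subunit, and its lines and those of Mrpl23 may share reads. It averaged 37.2 TPM over the 15 libraries, against 6.66 TPM for Mrpl23, so both levels are uncertain. The GENCODE M21 annotation of GRCm38 held 78 protein-coding genes with such symbols, of which Mrpl11, Mrpl16, Mrpl22, Mrpl28, Mrpl43, Mrpl44 and Mrpl49 had no line in the expression table.

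The members lay on 17 chromosomes, with 10 of them on chromosome 11. Of the 71 protein-coding members, 18 (25.4%) had the start of another protein-coding gene on the opposite strand within 1000 bases, in head-to-head orientation, against 1306 of 12752 (10.2%) protein-coding genes of the table. Mrps18b starts 45 bases from Ppp1r10, Mrpl50 83 bases from Zfp189 and Mrpl2 207 bases from Klc4. RefSeq promoter windows (GRCm38.p6) were matched for 62 of the 72 members, and the 250 bases before each start were searched on both strands for CCGGAAG, a core bound by ETS factors, for TGCGCA, the core of the NRF1 site, for ATGGCGG, a YY1 core, and for TATAAA, the classic core promoter box. CCGGAAG occurred in 14 member windows (22.6%) and in 9.47% of 16522 protein-coding windows. TGCGCA occurred in 15 (24.2%) and in 8.52%. ATGGCGG occurred in 1 (1.61%) and in 2.57%, and TATAAA in 3 (4.84%) and in 11.9%. The median GC content was 58.6% in member windows and 56% in all windows, and the ETS and NRF1 cores are themselves rich in G and C. These letters describe the windows and do not show that a factor binds there. The 16522 windows were not limited to genes of the expression table, whereas every member is in it. Shares among expressed genes alone were not counted, so the contrasts cannot be read as particular to this family.

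Windows of 3 members that recur in the comparisons are shown as examples of promoters with and without these letters, each 5′ to 3′ on the gene's strand and ending at the base before the RefSeq start, with matches to CCGGAAG and TGCGCA in capitals. Mrpl58 and Mrps18a each hold both motifs, and Mrps9 holds no match in this window. The window of Mrps18b, which holds 1 TGCGCA, overlaps exons of the neighbouring Ppp1r10 and is not shown.
Mrpl58, chr11:115403502-115403751, plus strand: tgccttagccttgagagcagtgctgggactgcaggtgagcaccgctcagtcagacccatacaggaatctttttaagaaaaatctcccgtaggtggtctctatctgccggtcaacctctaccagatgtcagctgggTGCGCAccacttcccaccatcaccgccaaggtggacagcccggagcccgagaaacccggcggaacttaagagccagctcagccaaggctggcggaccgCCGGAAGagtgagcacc
Mrps18a, chr17:46110754-46111003, plus strand: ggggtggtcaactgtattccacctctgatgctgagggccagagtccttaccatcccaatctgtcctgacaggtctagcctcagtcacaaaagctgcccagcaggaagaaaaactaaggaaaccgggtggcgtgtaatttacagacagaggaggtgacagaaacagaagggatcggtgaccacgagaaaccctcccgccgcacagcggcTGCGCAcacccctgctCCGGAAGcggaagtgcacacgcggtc
Mrps9, chr1:42850983-42851232, plus strand: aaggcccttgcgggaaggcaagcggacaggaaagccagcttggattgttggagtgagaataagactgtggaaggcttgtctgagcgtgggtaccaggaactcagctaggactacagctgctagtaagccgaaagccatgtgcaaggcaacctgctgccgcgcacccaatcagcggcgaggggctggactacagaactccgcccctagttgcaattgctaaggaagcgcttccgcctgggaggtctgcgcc

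Levels are given in TPM, a transcript abundance corrected for transcript length and set relative to the library's total. All 72 members reached 1 TPM or more in 3 or more libraries and were tested. Their mean levels over the 15 libraries ran from 3.98 to 142 TPM with a median of 16.5 TPM. The median was 16.7 TPM for large-subunit symbols and 15.6 TPM for small-subunit symbols. Only 7 members averaged at least 50 TPM, and 18 averaged under 10 TPM. The highest large-subunit levels belonged to Mrpl48, a protein found only in mitochondrial ribosomes (142 TPM), Mrpl27, counterpart of a bacterial protein beside the catalytic centre (95.5 TPM), and Mrpl20, an early-assembling protein in bacteria (92.0 TPM). The lowest were Mrpl47 (5.28 TPM), Mrpl45, a protein near the exit tunnel (5.29 TPM), and Mrpl50 (5.46 TPM). Among small-subunit symbols, Mrps18b (60.3 TPM), Mrps21 (58.1 TPM) and Mrps33 (44.2 TPM) were highest, and Mrps27, a pentatricopeptide-repeat protein (3.98 TPM), Mrps34 (4.06 TPM) and Mrps30 (6.56 TPM) were lowest. Exons of Mrps34 share 63.4% of their bases with Mapk8ip3 on the opposite strand and 37.0% with Nme3 on its own strand, and whether strand was used in quantification is not given, so its level is uncertain. The same holds for Mrpl53, whose exons share 88.0% of their bases with Gm42688 on the same strand, and for Mrps18b, of whose exonic bases 30.5% lie opposite the antisense gene Gm16279.

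**Figure D1:**
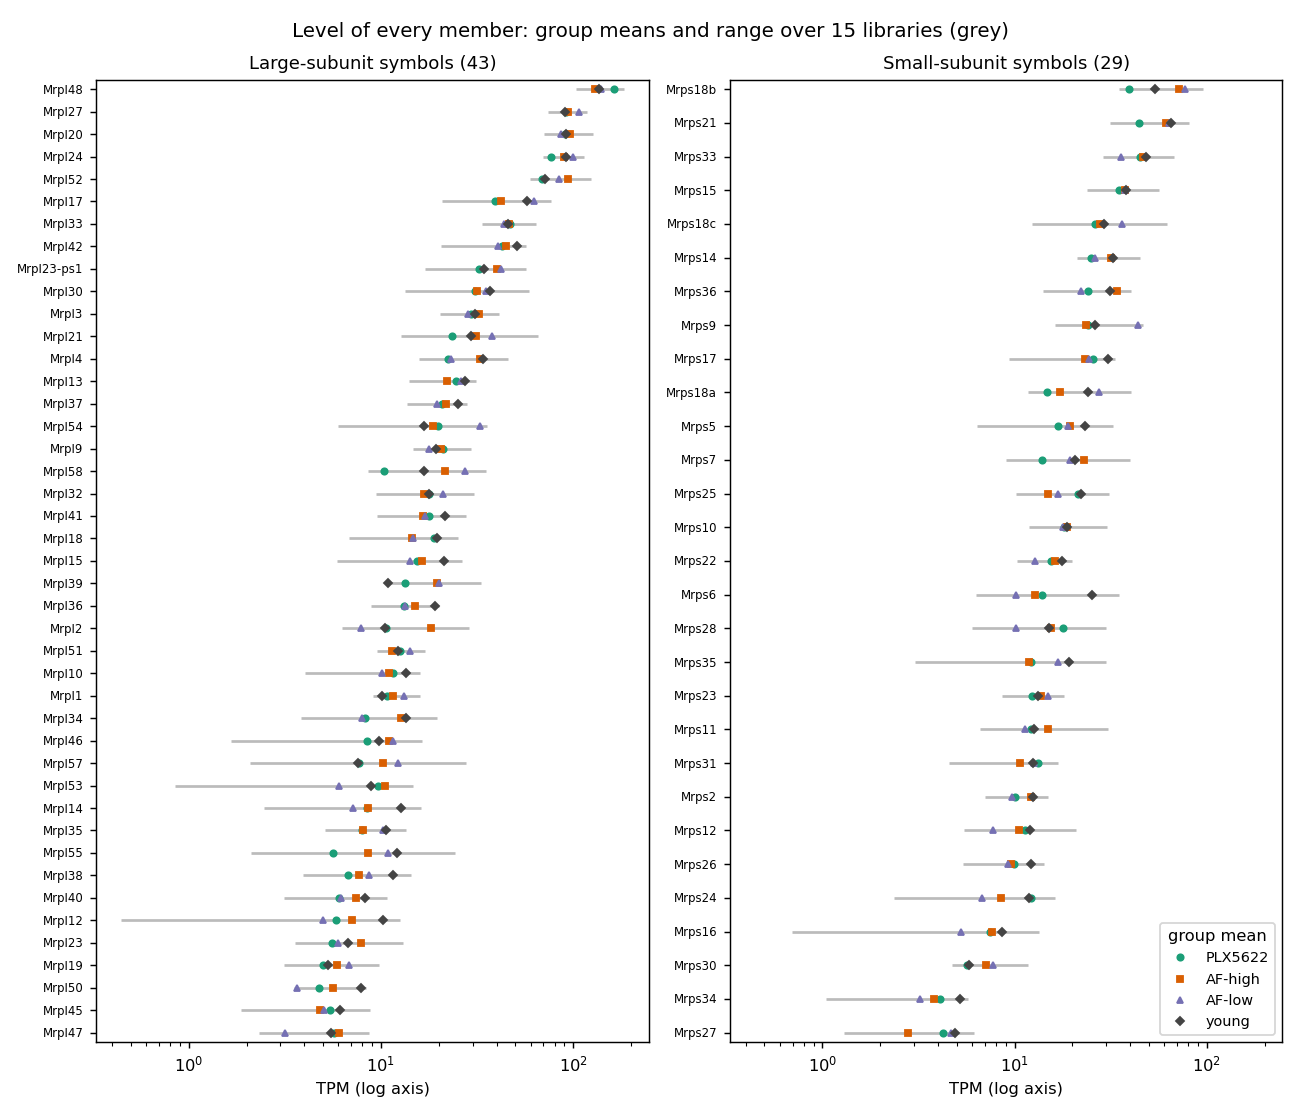
Mean level of each of the 72 members in TPM on a log axis, by group (symbols), with large-subunit symbols at left and small-subunit symbols at right; grey bars span the lowest to the highest of the 15 libraries. Group means of most members lie close together relative to the range over libraries, and Mrpl48 (142 TPM over all libraries) and Mrps18b (60.3 TPM) head their columns.

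Summed over the family, the members took 1645, 1688, 1541 and 1647 TPM in the PLX5622 libraries. The sum was 2007, 1630, 1586, 1919 and 1815 TPM in AF-high, 1798, 1840 and 1822 TPM in AF-low, and 1837, 1894 and 1827 TPM in young libraries. Every PLX5622 library lay below every AF-low and young library, while the AF-high libraries ran from within the PLX5622 range to above all others. The same order held without the pseudogene Mrpl23-ps1. The sums were then 1512 to 1653 TPM in PLX5622, 1569 to 1961 TPM in AF-high, 1765 to 1786 TPM in AF-low and 1795 to 1862 TPM in young libraries. Bulk RNA cannot tell fewer cells of a kind from less RNA per cell. After division by a median-of-ratios size factor, which places the typical gene at a like level in all libraries, the sums were 1613 to 1720 for PLX5622 and 1641 to 2096 for AF-high libraries. They were 1723 to 1813 for AF-low and 1709 to 1809 for young libraries, so that PLX5622 and young libraries then overlapped. This scaling moved the median log2 difference of all genes between PLX5622 and young libraries to -0.01, against -0.11 in deposited TPM. The ratio of large-subunit to small-subunit sums was 2.06 ± 0.149 in PLX5622 (n = 4), 1.97 ± 0.249 in AF-high (n = 5), 2.00 ± 0.233 in AF-low (n = 3) and 1.85 ± 0.151 in young libraries (SD, n = 3), with overlapping ranges.

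**Figure D2:**
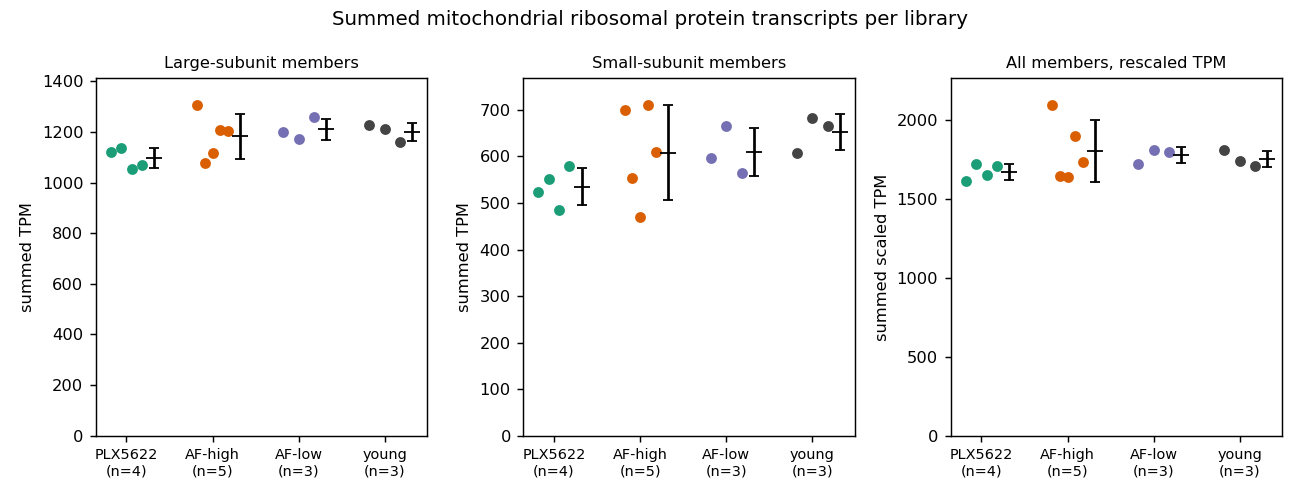
Summed TPM of the large-subunit members, of the small-subunit members, and of all members after median-of-ratios scaling, per library (points) with the group mean and SD (black) and axes starting at 0. AF-high libraries spread over 1586 to 2007 TPM in all members, and after scaling PLX5622 (1613 to 1720) and young (1709 to 1809) libraries overlap.

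The libraries themselves differed in ways that touch these values. All 10 microglial markers were measured in every library, and they summed to 8620 to 9271 TPM in PLX5622 and 8121 to 12011 TPM in AF-high libraries. The sum was 6587 to 9170 TPM for AF-low and 10080 to 11701 TPM for young libraries, so that PLX5622 and AF-low libraries all lay below the young ones. Markers of border-associated macrophages (8 of 8 measured) summed to 69.4 to 99.1 TPM in PLX5622 and 150.1 to 277 TPM in AF-high libraries, and to 259 to 412 TPM in AF-low, against 110.3 to 135 TPM in young ones. Markers of choroid plexus and ependyma (4 of 7 measured) summed to 33 to 374 TPM in the 12 libraries of old mice, against 8761, 5776 and 209 TPM in young 1, 2 and 3. Astrocyte markers (6 of 8 measured) summed to 77.2 to 142 TPM in old mice, against 239.8, 265 and 98.03 TPM in the same young libraries. Mitochondrially encoded proteins took 5.38% and 7.66% of TPM in AF-high 2 and AF-high 3 and 1.57% to 2.70% in the other libraries. The members scattered around their group mean by 0.199 to 0.257 log2 units in PLX5622 libraries (root mean square over members) and by 0.370 to 0.574 in AF-high libraries. The scatter was 0.407 to 0.558 for AF-low and 0.200 to 0.231 for young libraries. All genes tested scattered alike, by 0.249 to 0.264, 0.364 to 0.560, 0.392 to 0.472 and 0.228 to 0.258 log2 units in the same groups. What part these features had in the differences of the members was not tested.

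Differences are in log2(TPM + 1) with a standard error (SE) from limma, a linear model with moderated variance fitted over 13175 genes and all 15 libraries, with Benjamini-Hochberg adjustment over these genes within each comparison. Differences of low genes are understated on this scale. No member passed an adjusted p of 0.05 in any of the 6 comparisons (0 of 72 each). The 95% confidence interval of a member's difference reached a median of 0.57 log2 units to either side between PLX5622 and AF-high (0.296 to 1.16 over the members) and 0.70 between AF-low and young cells (0.360 to 1.41), before any adjustment for the number of genes. The comparisons share groups of libraries, and their values are therefore not independent of each other. Each gene also has a single estimate of spread for all groups. The members' scatter averaged 0.231 log2 units in PLX5622 and 0.220 in young libraries, against 0.480 in AF-high and 0.503 in AF-low libraries. Intervals between PLX5622 and young cells can therefore be too wide and their p-values too large. Those between AF-high and AF-low cells can be too narrow and too small.

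**Figure D3:**
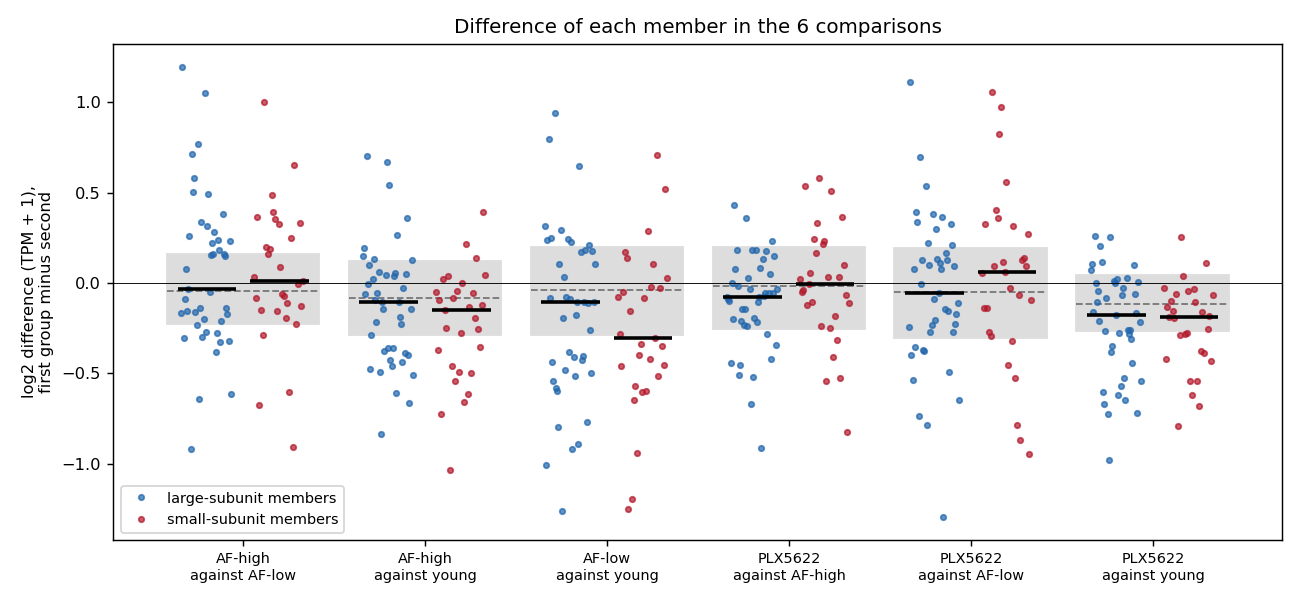
Log2 difference of every member in the 6 comparisons, first-named group minus second, with large-subunit members in blue, small-subunit members in red and their medians as black bars; the grey box and dashed line give the quartiles and median of all 13175 genes. The medians of the members stay between -0.31 (small-subunit members, AF-low against young) and 0.06 (small-subunit members, PLX5622 against AF-low).

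Between PLX5622 and AF-high cells, 83 of all genes (0.63%) passed the test, and none of the 72 members did. Of the members, 28 differences were positive and 44 negative, and their median was -0.06 against -0.02 for all genes. Large-subunit members had a median of -0.08 and small-subunit members of -0.01. All 8 markers of border-associated macrophages had negative differences here (median -1.01, 1 passed the test), and their part in the members' values was not tested. At an unadjusted p under 0.05, 1 member lay higher and 5 lower in limma (1.39% and 6.94% of members, against 5.93% and 9.4% of all genes). The groups did not overlap for 0 members in the higher and 1 in the lower direction, Mrps18b (1.39% of members), against 2.37% and 4.18% of all genes.

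Mrps18b encodes a small-subunit paralog of bacterial S18 and lies at chr17:35910379-35916389 on the minus strand. It measured 40.8, 35.1, 37.2 and 43.3 TPM in PLX5622 libraries, against 95.8, 64.8, 50.3, 66.7 and 79.0 TPM in AF-high libraries. It measured 85.1, 64.1 and 81.1 TPM in AF-low and 41.2, 65.1 and 55.1 TPM in young libraries. The PLX5622 values lay below all 8 libraries of untreated old mice, and young 1 lay within the PLX5622 range. The difference was -0.82 ± 0.18 (SE) between PLX5622 and AF-high (limma adjusted p = 0.0540; 95% interval -1.21 to -0.44) and -0.95 ± 0.21 between PLX5622 and AF-low (limma adjusted p = 0.0858). It was -0.43 ± 0.21 between PLX5622 and young cells (limma adjusted p = 0.955). Against AF-high it passed the test, with limma adjusted p = 0.0316, 0.0488, 0.0435 and 0.0480, when AF-high 3, AF-high 4, AF-low 1 or AF-low 2 was left out, and the adjusted p was 0.192 without PLX5622 3. Where it passed, the calls over all genes also rose above the 83 of the full fit.

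The other S18 paralogs gave different values. Mrps18a, whose protein sits in the large subunit, measured 16.8, 13.2, 13.5 and 15.4 TPM in PLX5622, 21.9, 11.8, 13.5, 16.5 and 22.9 TPM in AF-high, 25.4, 40.3 and 17.1 TPM in AF-low, and 24.0, 24.1 and 24.2 TPM in young libraries. Every PLX5622 library lay below every AF-low and young library. The difference was -0.79 ± 0.27 against AF-low (limma adjusted p = 0.198) and -0.68 ± 0.27 against young (limma adjusted p = 0.825). Mrps18c, the paralog that takes the place of bacterial S18 in the small subunit, averaged 26.2 ± 3.87 TPM in PLX5622 (n = 4), 27.7 ± 9.15 TPM in AF-high (n = 5), 36.2 ± 22.6 TPM in AF-low (n = 3) and 29.1 ± 1.76 TPM in young libraries (SD, n = 3), and its ranges overlapped in all 6 comparisons. Whether the paralogs differ from each other in these contrasts was not tested.

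Mrpl58, the peptidyl-tRNA hydrolase of the large subunit, measured 9.67, 10.9, 12.3 and 8.62 TPM in PLX5622 libraries, against 34.7, 11.8, 18.7, 17.1 and 25.8 TPM in AF-high libraries. It measured 35.1, 22.7 and 24.0 TPM in AF-low and 15.6, 17.5 and 17.1 TPM in young libraries. The PLX5622 values lay below all AF-low and young libraries and overlapped AF-high only through AF-high 2. The difference was -0.91 ± 0.25 (SE) against AF-high (limma adjusted p = 0.0908), -1.30 ± 0.28 against AF-low (limma adjusted p = 0.0858) and -0.65 ± 0.28 against young cells (limma adjusted p = 0.934). Against AF-low it passed the test without AF-high 2 (limma adjusted p = 0.0373) or AF-low 2 (0.0400), and its adjusted p was 0.257 without PLX5622 3. Without AF-low 2 the calls over all genes also rose far above the 19 of the full fit. The number of all genes called without AF-high 2 is not given here.

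Mrpl48 was the member of smallest p among those higher in PLX5622 cells, at 168, 163, 173 and 146 TPM, against 138, 104, 183, 110.0 and 110.4 TPM in AF-high libraries. These ranges overlapped through AF-high 3, and the difference was 0.36 ± 0.16 (SE; limma adjusted p = 0.292). Mrps36, the 2-oxoglutarate dehydrogenase subunit, averaged 24.0 ± 6.97 TPM in PLX5622 (n = 4) and 34.3 ± 4.80 TPM in AF-high libraries (SD, n = 5), a difference of -0.52 ± 0.22 (SE; limma adjusted p = 0.274).

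Between PLX5622 and AF-low cells, 19 of all genes (0.144%) passed the test, none of them a member. The 72 members split into 36 positive and 36 negative differences with a median of 0.02, against -0.05 for all genes. In limma at an unadjusted p under 0.05, 3 lay higher and 6 lower (4.17% and 8.33% of members, against 4.11% and 10.2% of all genes). The groups did not overlap for 3 members that were higher and 11 that were lower in PLX5622 cells (4.17% and 15.3% of members, against 5.31% and 10.9% of all genes). The 3 higher ones were Mrpl47, Mrpl50 and Mrps28. Mrps28, counterpart of bacterial S1, measured 18.7, 17.8, 17.1 and 17.6 TPM in PLX5622 libraries, against 10.7, 5.99 and 13.7 TPM in AF-low libraries, a difference of 0.82 ± 0.35 (SE; limma adjusted p = 0.304). Without AF-low 2, the lowest of these, the difference was 0.52 (limma adjusted p = 0.467). The border-associated macrophage markers were lower here too (8 of 8 negative, median -1.80, 3 passed the test), and their part was not tested. Besides Mrps18a, Mrps18b and Mrpl58, the lower ones included Mrps9, a protein conserved in all ribosomes, and Mrpl54, found only in mitochondrial ribosomes.

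Between PLX5622 and young cells, 12 of all genes (0.0911%) passed the test, none of them a member. The difference was negative for 57 of 72 members and for 9130 of 13175 genes, and positive for 15 members, and their median was -0.19 against -0.11 for all genes. The median was -0.18 for large-subunit and -0.19 for small-subunit members. Negative differences were also found for 8 of 10 microglial markers (median -0.28) and 8 of 8 markers of border-associated macrophages (median -0.53). So it was for 4 of 4 choroid plexus and ependyma markers (median -3.06), and the part of these lists was not tested. In limma at an unadjusted p under 0.05, 0 members lay higher and 5 lay lower (6.94% of members), against 1.41% and 3.82% of all genes. The groups did not overlap for 1 member that was higher, Mrpl39, and for 17 that were lower in PLX5622 cells (1.39% and 23.6% of members, against 3.28% and 12.7% of all genes). After median-of-ratios scaling 3 members lay wholly higher and 9 wholly lower (4.17% and 12.5% of members, against 6.66% and 6.42% of all genes), and the members' median was -0.08 against -0.01 for all genes. The 17 members that lay wholly lower in deposited TPM had differences of -0.26 to -0.98, and 13 of them carry large-subunit symbols.

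Among them was Mrps21, counterpart of bacterial S21 and the small-subunit symbol of second highest level, at 44.9, 49.2, 32.9 and 50.6 TPM in PLX5622 libraries, against 53.8, 64.8 and 76.3 TPM in young libraries. It measured 80.8, 61.7, 31.3, 77.3 and 57.1 TPM in AF-high and 66.3, 68.8 and 56.0 TPM in AF-low libraries, so that AF-high 3 had the lowest value of all. The difference between PLX5622 and young cells was -0.54 ± 0.27 (SE; limma adjusted p = 0.958).

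Other abundant members had group means closer together, among them Mrpl27 and Mrpl20, whereas Mrpl48, the most abundant, averaged 162 ± 11.9 TPM in PLX5622 (n = 4) and 136 ± 13.4 TPM in young libraries (SD, n = 3). These ranges of Mrpl48 overlapped, with 146 TPM in PLX5622 4 and 148 TPM in young 3. Its difference was 0.18 to 0.32 when 1 library was left out, and the lowest limma adjusted p was 0.858. Mrpl27 averaged 91.5 ± 10.5 TPM in PLX5622 (n = 4), 94.4 ± 16.9 TPM in AF-high (n = 5), 107.6 ± 12.3 TPM in AF-low (n = 3) and 90.4 ± 4.38 TPM in young libraries (SD, n = 3). Its difference between PLX5622 and young cells was 0.01, with a 95% interval of -0.32 to 0.35. For Mrpl20 the difference was -0.03, with an interval of -0.41 to 0.36, and for the small-subunit member Mrps33 it was -0.13, with an interval of -0.68 to 0.41. These intervals leave room for differences of either sign.

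Mrpl50, a large-subunit protein without a bacterial counterpart, had the smallest adjusted p of the family in this comparison. It measured 4.46, 5.11, 4.62 and 4.83 TPM in PLX5622, 4.54, 5.43, 4.54, 6.94 and 6.88 TPM in AF-high, 3.55, 3.71 and 3.75 TPM in AF-low, and 7.34, 8.33 and 7.87 TPM in young libraries. All 12 libraries from old mice lay below the 3 young libraries, and all AF-low libraries lay below all others. The difference from young cells was -0.62 ± 0.19 (SE) in PLX5622 (limma adjusted p = 0.473), -0.43 ± 0.18 in AF-high (limma adjusted p = 0.405) and -0.92 ± 0.20 in AF-low cells (limma adjusted p = 0.118). Without AF-low 2 the adjusted p of the last was 0.0589, and without young 2 it was 0.386. With young 1 and young 2 left aside, the difference between AF-low and the remaining young library was -0.92 (limma adjusted p = 0.998).

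Mrpl55, a mitochondria-specific large-subunit protein, measured 5.09, 5.91, 5.79 and 5.79 TPM in PLX5622 and 12.04, 11.03 and 13.3 TPM in young libraries, with no overlap. Its 5 AF-high values were 5.64, 4.78, 2.11, 24.3 and 6.05 TPM. In the fit of all 15 libraries the difference between PLX5622 and young was -0.98 ± 0.48 (SE; limma adjusted p = 0.958), and with only the 7 libraries compared it passed the test (limma adjusted p = 0.0251). Calls over all genes also rose there, above the 12 of the full fit. The SE of the 15-library fit also rests on the AF-high libraries, whose SD was 8.90 TPM (n = 5). The SD was 0.377 TPM in PLX5622 (n = 4) and 1.13 TPM in young libraries (n = 3). What part this had in the change of call was not tested. Mrpl55 was named after its values were seen.

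**Figure D4:**
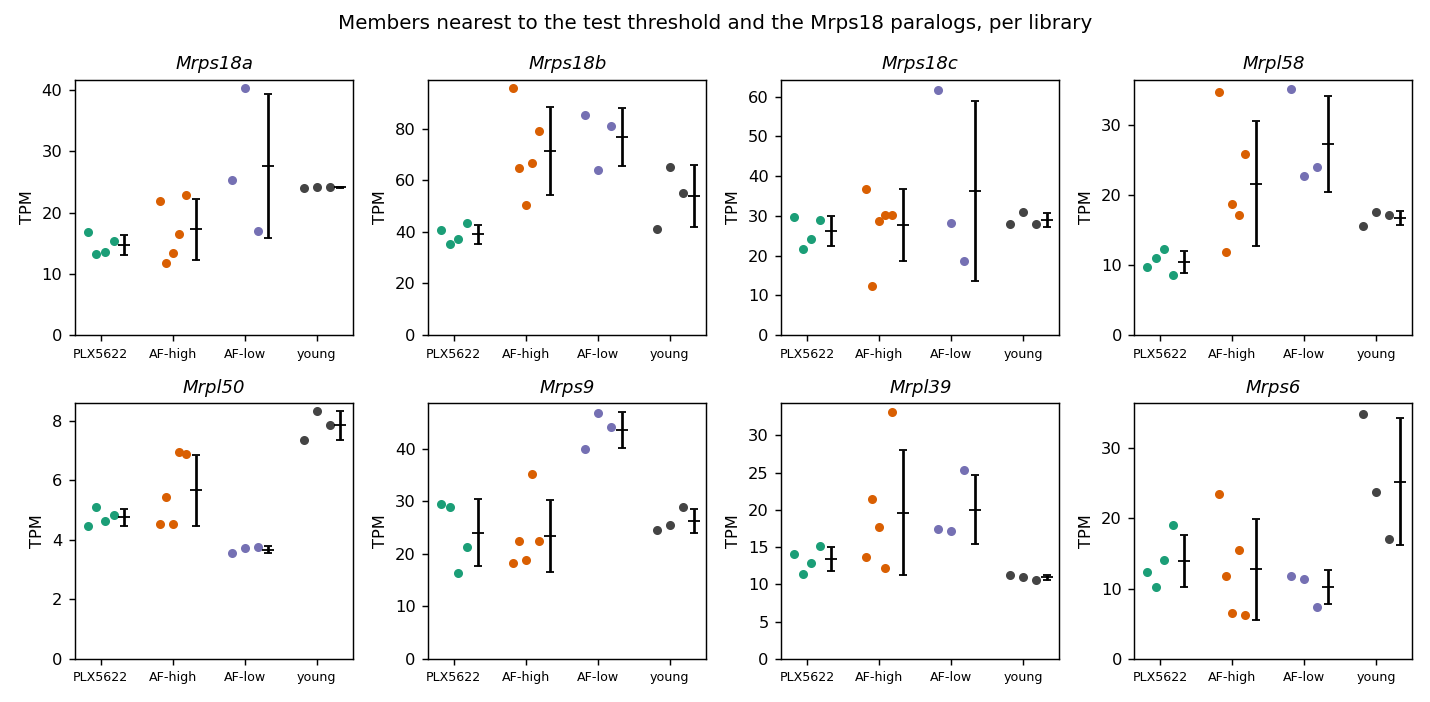
TPM per library (points) with group mean and SD (black) for the 3 S18 paralogs and for Mrpl58, Mrpl50, Mrps9, Mrpl39 and Mrps6, each panel with its own axis starting at 0. Mrps18b lies lower in all 4 PLX5622 libraries (35.1 to 43.3 TPM) than in all 8 AF-high and AF-low libraries (50.3 to 95.8 TPM), and Mrpl50 is highest in the 3 young libraries (7.34 to 8.33 TPM).

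Between AF-high and AF-low cells of old mice, none of the 72 members and none of all genes (0%) passed the test. The members' differences were positive for 36 and negative for 36, with a median of 0.00 against -0.04 for all genes. All 10 microglial markers had positive differences here (median 0.30), and 7 of 8 markers of border-associated macrophages had negative ones (median -0.75). The part of either list was not tested. In limma at an unadjusted p under 0.05, 5 members lay higher and 5 lower (6.94% of members each, against 3.56% and 4.65% of all genes). The groups did not overlap for 1 member that was higher, Mrpl50, and 3 that were lower in AF-high cells, Mrpl54, Mrps9 and Mrps27 (1.39% and 4.17% of members, against 1.05% and 1.71% of all genes). Mrps9, a protein conserved in all ribosomes, measured 18.2, 22.5, 18.9, 35.2 and 22.4 TPM in AF-high libraries, against 40.0, 46.8 and 44.2 TPM in AF-low libraries. Every AF-high library lay below every AF-low library, and the difference was -0.91 ± 0.22 (SE; limma adjusted p = 0.466). The level of Mrps9 was 24.0 ± 6.36 TPM in PLX5622 (n = 4) and 26.3 ± 2.28 TPM in young libraries (SD, n = 3).

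Mrpl2, counterpart of a bacterial protein at the peptidyl transferase centre, measured 21.7, 9.83, 17.0, 13.4 and 28.8 TPM in AF-high libraries and 6.30, 7.02 and 10.2 TPM in AF-low libraries. The ranges overlapped through AF-high 2, and the difference was 1.05 ± 0.31 (SE; limma adjusted p = 0.471). Mrpl54 measured 22.8, 23.9, 5.996, 15.3 and 25.3 TPM in AF-high libraries, all below the 35.7, 29.0 and 33.6 TPM in AF-low libraries (-0.92 ± 0.36, SE; limma adjusted p = 0.516). Its lowest value came from AF-high 3, the library with 7.66% mitochondrially encoded transcripts. AF-high 2, with the next highest share (5.38%), measured 23.9 TPM, and a link to this share was not tested. Without AF-high 3 the difference was -0.58 (limma adjusted p = 0.489).

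In a few members the AF-low libraries lay far apart from each other. Mrps16, counterpart of bacterial S16, averaged 7.42 ± 0.898 TPM in PLX5622 libraries (SD, n = 4) and measured 0.693, 13.4 and 1.68 TPM in AF-low libraries, against 8.48, 8.58 and 8.70 TPM in young libraries. Mrpl53, a protein near the stalk, measured 3.23, 14.2 and 0.848 TPM in AF-low libraries, against 8.33, 10.4 and 7.99 TPM in young libraries. In both genes AF-low 2 was above every young library and the other AF-low libraries were below them. Mrpl12, the stalk protein that also binds the mitochondrial RNA polymerase, measured 0.446, 7.85 and 6.70 TPM in AF-low libraries and 8.16, 12.5 and 10.01 TPM in young libraries, a difference of -1.26 ± 0.51 (SE; limma adjusted p = 0.340). Between AF-low and young cells the difference was -1.25 ± 0.57 for Mrps16 (SE; limma adjusted p = 0.405) and -1.004 ± 0.51 for Mrpl53 (limma adjusted p = 0.457). Leaving out 1 AF-low library moved all 3 genes by more than 1.5 times. For Mrps16 the difference was -0.63 without AF-low 1 and -2.17 without AF-low 2, with limma adjusted p of 0.821 and 0.0237. For Mrpl53 it was -0.30 without AF-low 3 and -1.82 without AF-low 2 (0.842 and 0.0237), and for Mrpl12 -0.43 without AF-low 1 and -1.73 without AF-low 2 (0.782 and 0.102). Without AF-low 2, 182 of all genes passed the test.

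Between AF-high and young cells, none of the 72 members and none of all genes (0%) passed the test. The difference was negative for 49 and positive for 23 members, against 8031 negative and 5144 positive for all genes, and their median was -0.13 against -0.08 for all genes. Of the markers, 8 of 10 microglial (median -0.06) and 4 of 4 choroid plexus and ependyma ones (median -3.10) had negative differences. Of border-associated macrophage markers 7 of 8 had positive ones (median 0.50), and the part of these lists was not tested. In limma at an unadjusted p under 0.05, 2 members lay higher and 3 lower (2.78% and 4.17% of members, against 3.57% and 7.41% of all genes). The groups did not overlap for Mrpl39, which was higher, and for Mrpl36, Mrpl50 and Mrps18a, which were lower in AF-high cells (1.39% and 4.17% of members, against 2.63% and 5.15% of all genes). After median-of-ratios scaling 1 member lay wholly higher and 1 wholly lower (1.39% of members each, against 4.71% and 3.27% of all genes). Mrpl39, a large-subunit protein that resembles threonyl-tRNA synthetases, measured 14.01, 11.4, 12.8 and 15.1 TPM in PLX5622, 13.6, 21.4, 17.7, 12.2 and 33.1 TPM in AF-high and 17.4, 17.2 and 25.3 TPM in AF-low libraries, against 11.3, 10.95 and 10.5 TPM in young libraries. All 12 libraries from old mice thus lay above the 3 young libraries, by 0.70 ± 0.26 (SE) in AF-high (limma adjusted p = 0.327), 0.80 ± 0.29 in AF-low (0.290) and 0.26 ± 0.27 in PLX5622 cells (0.979).

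Mrps6, counterpart of bacterial S6, measured 23.5, 11.8, 6.55, 15.5 and 6.29 TPM in AF-high libraries, against 34.9, 23.7 and 17.1 TPM in young libraries. The difference was -1.03 ± 0.37 (SE; limma adjusted p = 0.314). The young values were highest where the choroid plexus sum was highest (8761, 5776 and 209 TPM). The young library with the sum of 209 TPM measured 17.1 TPM of Mrps6, above every AF-low library and every AF-high library except AF-high 1. Exons of Mrps6 share 19.9% of their bases with Gm49711 and 10.4% with Slc5a3 on the same strand. With young 1 and young 2 left aside, which leaves 1 young library, the difference was -0.55 in AF-high cells (limma adjusted p = 0.999). In AF-low libraries Mrps6 measured 11.8, 11.4 and 7.44 TPM, all below the young values (-1.19 ± 0.41, SE; limma adjusted p = 0.266), and with the same libraries left aside the difference was -0.71 (limma adjusted p = 0.998). This alternative was added after the data were seen, and it assumes that the lone young library varies like the other groups. The part of choroid plexus transcripts and that of the overlapping genes were not tested.

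Between AF-low and young cells, 6 of all genes (0.0455%) passed the test, none of them a member. Again 49 members had a negative and 23 a positive difference, against 7150 and 6025 of all genes, with a median of -0.17 against -0.04 for all genes. The median was -0.31 for small-subunit and -0.11 for large-subunit members. All 10 microglial markers had negative differences here (median -0.35), as had 4 of 4 choroid plexus and ependyma markers (median -3.01). All 8 markers of border-associated macrophages had positive ones (median 0.95). The part of these lists was not tested. In limma at an unadjusted p under 0.05, 5 members lay higher and 5 lower (6.94% of members each, against 4.93% and 6.85% of all genes). The groups did not overlap for 5 members that were higher and 7 that were lower in AF-low cells (6.94% and 9.72% of members, against 8.25% and 11.1% of all genes). Those higher were Mrpl27, Mrpl39, Mrpl54, Mrpl58 and Mrps9, and those lower Mrpl12, Mrpl14, Mrpl36, Mrpl50, Mrps17, Mrps22 and Mrps6. Of these, Mrpl14, Mrpl36, Mrps17 and Mrps22 were named only after their values were seen.

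Read over the 4 groups, 36 members (50%) had their highest mean in young cells, against 30.9% of all genes. The lowest mean fell in PLX5622 cells for 26 members (36.1%, against 36.3% of all genes) and in AF-low cells for 28 (38.9%, against 24.6%). After median-of-ratios scaling these counts were 16 (22.2%, against 25.9%) for PLX5622 and 33 (45.8%, against 27.7%) for AF-low cells, and after quantile normalization 11 (15.3%, against 23.1%) and 33 (45.8%, against 28.7%). The young group held the highest mean of 26 members (36.1%, against 20.6% of all genes) after median-of-ratios scaling, and of 28 after quantile normalization (38.9%, against 24.4%). These shares are descriptions and carry no test.

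Members can also be divided by origin. In PLX5622 against AF-high cells the median was -0.05 for 44 members with a counterpart and -0.06 for 26 without. In AF-low against young cells the medians were -0.13 and -0.30, and in PLX5622 against young cells -0.21 and -0.16. They were -0.14 and -0.13 in AF-high against young cells. The medians had opposite signs in AF-high against AF-low cells (0.08 and -0.07) and in PLX5622 against AF-low cells (-0.03 and 0.09).

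Other parts of mitochondrial gene expression were read from lists of textbook genes. The 5 further ribosomal proteins without an Mrp symbol, Dap3, Ptcd3, Chchd1, Aurkaip1 and Gadd45gip1, gave no call in any comparison (0 in limma). At an unadjusted p under 0.05 in limma, Aurkaip1 lay lower in PLX5622 against AF-high cells (20% of the list, against 9.4% of all genes). Chchd1 lay lower in AF-high against AF-low cells (20%, against 4.65%) and Ptcd3 in PLX5622 against AF-low cells (20%, against 10.2%). Aurkaip1 averaged 24.4 TPM in PLX5622 and 38.2 TPM in AF-high libraries, a difference of -0.62 ± 0.18 (SE; limma adjusted p = 0.117). None of 17 translation factors, 26 assembly factors, 18 aminoacyl-tRNA synthetases and amidotransferase subunits, 16 genes of mitochondrial transcription and RNA processing, or 18 genes of protein import and matrix upkeep passed the test in any comparison. In PLX5622 against AF-high cells, limma counted 0, 0, 2, 0 and 4 of them at an unadjusted p under 0.05, against 2019 of 13175 genes. In AF-high against AF-low cells the counts were 2, 1, 1, 3 and 1 (1082 of all genes), and in AF-low against young cells 2, 0, 1, 3 and 0 (1551 of all genes). They were 1, 1, 1, 0 and 3 in AF-high against young (1446 of all genes), 3, 1, 1, 2 and 0 in PLX5622 against AF-low (1880 of all genes), and 0, 0, 1, 0 and 2 in PLX5622 against young cells (689 of all genes). The release factor gene Mtrf1 averaged 7.59 TPM in PLX5622 and 2.76 TPM in AF-low libraries, a difference of 1.38 ± 0.35 (SE; limma adjusted p = 0.124).

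Among the lists of mitochondrial and ribosomal genes, the calls all came between PLX5622 and AF-high cells. That comparison also had the most calls over all genes (83 of 13175, 0.63%), against 0 to 19 in the others. Among 9 regulators of mitochondrial biogenesis, Myc, a growth-related transcription factor, fell, at 87.7 ± 6.92 TPM in PLX5622 (n = 4) and 131 ± 15.9 TPM in AF-high libraries (SD, n = 5), a difference of -0.57 ± 0.12 (SE; limma adjusted p = 0.0495). The call was lost with a pseudocount of 0.5 (adjusted p = 0.0522) and when any 1 of 12 libraries was left out, among them each of the 4 PLX5622 libraries (0.0986 to 0.206). Among 79 nuclear genes of oxidative phosphorylation, Ndufv3, a complex I subunit, rose, at 11.6 ± 1.78 TPM in PLX5622 and 5.22 ± 1.43 TPM in AF-high libraries (1.05 ± 0.21, SE; limma adjusted p = 0.0392). Among 76 cytosolic ribosomal proteins, Rpl38 fell, at 151 ± 28.3 TPM in PLX5622 and 262 ± 44.3 TPM in AF-high libraries (-0.79 ± 0.15, SE; limma adjusted p = 0.0363). Both calls were lost without any 1 of the PLX5622, without any 1 of the young libraries and without AF-high 2, and that of Ndufv3 also without AF-high 5 or AF-low 3. Leaving out a PLX5622 library gave the highest values (limma adjusted p of 0.0808 to 0.144 for Ndufv3 and 0.0539 to 0.168 for Rpl38).

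Medians describe how whole lists lay. The 13 mitochondrially encoded proteins had a median difference of -0.84 in PLX5622 against AF-high cells, with 13 of 13 negative (6913 of 13175 for all genes). In AF-high against AF-low cells it was 0.59, with 13 of 13 positive (5785 of 13175 for all genes). None passed the test in limma, and at an unadjusted p under 0.05 there were 9 and 1 (69.2% and 7.69%, against 15.3% and 8.21% of all genes). AF-high 2 and AF-high 3, with 5.38% and 7.66% of TPM from these genes, stand against 1.57% to 2.70% in all other libraries. Cytosolic ribosomal proteins had a median of -0.27 in PLX5622 against AF-high and -0.25 in PLX5622 against AF-low cells. There 67 and 70 of 76 were negative, against 6913 and 7327 of 13175 for all genes. In AF-high and AF-low against young cells their medians were 0.22 and 0.21. The medians of the mitochondrial ribosomal proteins in the same 4 comparisons were -0.06, 0.02, -0.13 and -0.17. Nuclear oxidative phosphorylation genes had medians of -0.19, -0.11, -0.13 and -0.16 there, and -0.26 in PLX5622 against young cells, where the mitochondrial ribosomal proteins had -0.19.

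**Figure D5:**
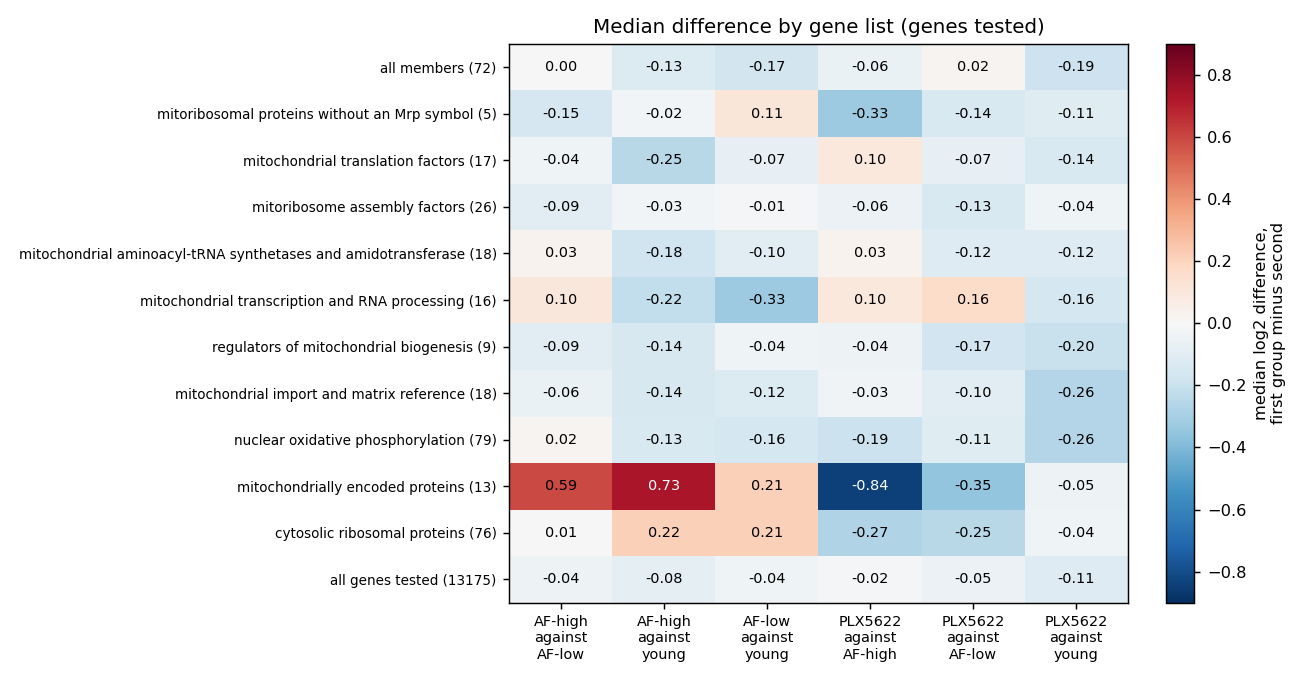
Median log2 difference, first-named group minus second, of each gene list (rows, number of genes tested in brackets) in the 6 comparisons (columns); red is higher and blue lower in the first-named group. The mitochondrial ribosomal proteins stay between -0.19 and 0.02, and the mitochondrially encoded proteins run from -0.84 to 0.73.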

How the data were processed

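RNA from sorted microglia was kept in RNAprotect, purified with RNeasy, amplified with the Ovation system and made into low-input libraries, per the labels' protocols. The deposited table holds TPM, a line for each gene symbol with a column for each of the 15 libraries, as made by the authors. FastQC 0.11.8, Salmon 1.0.0 and DESeq2 with build GRCm38 (mm10) are named per the submitters' processing notes, without roles, and those sources do not give the annotation, the filter or the strandedness. TPM keeps no read depth, so no counting interval can be given, and amplification can add to the spread of low genes. No value was 0 (0 values), no pair of libraries was identical (0 pairs), and 19 symbols had been turned into dates.

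From the deposited TPM, log2(TPM + 1) was taken for the 13175 of 13834 genes that reached 1 TPM or more in 3 or more libraries. One model over all 15 libraries was fitted with limma 3.58.1 in R 4.3.3 (eBayes with a trend, 11 residual and 4.151 median prior degrees of freedom, two-sided tests, Benjamini-Hochberg adjusted p under 0.05 in each of 6 comparisons) and tested on simulated data. There it called 36% to 57% of genes changed by 1 log2 unit and 86% to 94% of those changed by 2. The simulation gave each gene 1 spread for all groups, unlike the data, so these shares may not hold for the measured groups. Alternatives were pseudocounts of 0.1 and 0.5, other filters, quantile and median-of-ratios scaling, rescaling without mitochondrially encoded genes, only the groups compared, array weights, a replicate block and leaving out libraries. Named were 25 members: in each comparison and direction the 2 of smallest p, the 3 highest and 3 lowest levels per subunit, the 3 largest spreads of group means, and 7 fixed for their structure; non-members were named where called or of smallest p in a list. The members and lists were chosen with earlier results of these data known. Coordinates are from GENCODE M21 (GRCm38), promoters from RefSeq (GRCm38.p6). Figures were drawn with matplotlib 3.10.9 in Python 3.11.15.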

Additional observations from a re-analysis of the deposited data

Results flagged for a closer look

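Of 56 groups of 4 or 5 libraries, taken over the 25 named members and 3 summed levels, 4 held 1 library far from the rest of its group, while chance alone gives about 1 in 20. Mrps27 measured 6.19 TPM in PLX5622 4, with the next PLX5622 library at 3.79 TPM. Mrps30 measured 7.40 TPM in the same library, with the next at 5.09 TPM. Mrpl27 measured 107 TPM in PLX5622 1, with the next at 87.6 TPM. Mrps9 measured 35.2 TPM in AF-high 4, with the next AF-high library at 22.5 TPM.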

How the results depend on the processing

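In all 6 comparisons 0 members were called in the fit of all libraries, and under most alternatives the count stayed at 0. Between PLX5622 and AF-high cells, 1 member, Mrps18b, was called with a filter of 5 TPM (limma adjusted p = 0.0460; 118 of all genes called) and after rescaling without mitochondrially encoded genes (0.0360; 128), 2 (Mrps18b and Mrpl58) with array weights (441), and 3 (these and Mrps7; 295) when 3 libraries (AF-low 1, AF-high 2 and AF-high 3) were dropped, a choice added after the data were seen; leaving out 1 library gave 0 to 1, with 119 to 205 of all genes called where it gave 1. Between PLX5622 and AF-low cells, array weights gave 2 (89 of all genes) and leaving out 1 library 0 to 4, with 4 (Mrpl53, Mrpl58, Mrps16 and Mrps18b; 398 of all genes) without AF-low 2. Between AF-low and young cells, array weights gave 1 (Mrpl50, 0.0442; 44 of all genes) and leaving out 1 library 0 to 2, with 2 (Mrpl53 and Mrps16; 182 of all genes) without AF-low 2. Between PLX5622 and young cells, only the groups compared gave 1 (Mrpl55, 0.0251; 59 of all genes) and array weights 4 (Mrpl50, Mrpl58, Mrps18a and Mrps18b; 420 of all genes). The cause was not tested. The members' median moved by less than 0.13, the spread between libraries of a group, but the medians themselves are of that size. Over all 27 settings the median ran from -0.17 to 0.00 for PLX5622 against AF-high, from -0.10 (without AF-low 1) to 0.09 (median-of-ratios scaling) for PLX5622 against AF-low, and from -0.23 to -0.06 (quantile normalization) for PLX5622 against young cells. It ran from -0.05 (without AF-high 1) to 0.12 for AF-high against AF-low, from -0.21 to -0.02 (AF-low 1, AF-high 2 and AF-high 3 dropped) for AF-high against young, and from -0.25 to -0.11 for AF-low against young cells. Same-numbered libraries showed little shared deviation (correlations of -0.08 to 0.14). The highest value, 0.14, joined AF-high 1 and young 1, which are from mice of different ages. Such weak correlations cannot decide whether any libraries share animals, so pairing, by these numbers or otherwise, stays unknown. With the replicate number as a block, 0 members were called in every comparison, and the median between PLX5622 and young cells was -0.22. The read depth is unknown.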
